A study of Rattus norvegicus with 6 samples.

Results

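The 36 genes described here encode the enzymes and regulators by which the liver breaks down fatty acids and makes ketone bodies. They were listed by symbol and matched to array probes through the RefSeq accession given for each probe. The brightest probe stood for a gene, and a gene was kept when 3 or more of the 6 arrays had that probe well above background. All 36 passed, in each case on all 6 arrays, and no probe was saturated, so these are 36 of 11939 genes tested. By role, 2 genes activate fatty acids, 5 belong to the carnitine shuttle and 15 to mitochondrial oxidation. A further 6 belong to peroxisomal oxidation, 3 to microsomal omega-hydroxylation and 2 to ketone body metabolism, and 3 are listed as regulator and signalling genes. Each gene is listed under a single role. Ech1 and Eci2 are listed under mitochondrial oxidation, although their enzymes may also work in peroxisomes.

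A fatty acid is first joined to coenzyme A, and the mitochondrion takes up the long-chain product by way of a carnitine ester. Inside, rounds of dehydrogenation, hydration, a second dehydrogenation and thiolytic cleavage shorten the chain to acetyl-CoA, which the liver oxidises or turns into ketone bodies for other organs. Peroxisomes shorten very long chains, and microsomal CYP4A enzymes hydroxylate the far end of the chain. In rodent liver the nuclear receptor PPARα switches on genes of all these steps during fasting or after treatment with peroxisome proliferators.

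Liver RNA came from 6 male Sprague-Dawley rats of the outbred Crl:CD(SD) stock, 5 weeks old at purchase and kept on a basal diet. Of these, 3 rats were given corn oil as the control, and the other 3 carbon tetrachloride (CCl4), at 100 mg/kg/day. CCl4 is a solvent that liver cytochrome P450 turns into reactive products, and it is given to rodents as a model of liver injury and fibrosis. The series design gives 28 days and the treatment protocol 9 weeks, and the labels state neither whether the CCl4 was dissolved in corn oil nor whether the rats were fasted.

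Each rat gave 1 single-colour Agilent array, so a group has 3 separate animals. Levels are log2 of the processed spot signal minus the 75th percentile of the array, and a log2 difference is the CCl4 mean minus the corn oil mean. A level describes 1 probe and is not compared between genes. Across the arrays 61.9% to 67.3% of probes were well above background, and the arrays correlated at 0.984 to 0.990 within groups and at 0.973 to 0.987 between groups. All 14 hepatocyte markers examined were above background. The corn oil arrays and CCl4 replicate 1 were on 1 slide, and CCl4 replicates 2 and 3 on another that was scanned on a different day. With slide as a fixed block, called slide as a block below, a difference therefore rests on CCl4 replicate 1 alone against the corn oil rats. In whole liver, fewer cells of a type and less RNA per cell cannot be told apart.

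Most of the 36 genes were somewhat lower in the CCl4 rats, but none passed the test. Their median log2 difference was -0.30, which is 81.2% of the corn oil level, against -0.05 over all 11939 genes. The difference was negative in 34 of the 36 (94.4%), against 57.2% of all genes tested, and in 31 under quantile normalization. The test was limma, and a gene passed at an adjusted p below 0.05, the Benjamini-Hochberg correction covering every gene tested. It called 0 of the 36 genes, beside 76 of all genes (0.637%), of which 67 were higher (0.561%) and 9 lower (0.0754%). At an unadjusted p below 0.05, 11 of the 36 were lower, beside 9.77% of all genes, and 1 was higher, beside 9.95%.

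The 11 were Cpt1a, Cpt2, Hadha, Hadhb, Eci2, Decr1, Ech1, Etfb, Acaa1a, Pecr and Angptl4, and the 1 higher was Acaa1b. All 3 CCl4 rats lay below all 3 corn oil rats in 16 of the 36 genes, against 15.9% of all genes, and above them in 1, against 11.5%. The number lower at an unadjusted p below 0.05 was 6 under quantile normalization, beside 9.1% of all genes. It also moved with single animals. Leaving out CCl4 replicate 1, 2 or 3 gave 9, 4 and 14, beside 7.78%, 6.17% and 9.94% of all genes. Leaving out corn oil replicate 1, 2 or 3 gave 7, 10 and 7, beside 7.01%, 8.29% and 6.32%.

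Genes with a high signal tended to be lower in the CCl4 arrays in general. Among the 1194 brightest genes, which include 29 of the 36, 67.7% had a negative difference and the median was -0.12. In 313 of these 1194 all CCl4 rats lay below all corn oil rats, beside 15.9% of all genes. At an unadjusted p below 0.05, 202 of them were lower, beside 9.77% of all genes. All 14 hepatocyte markers were also below the corn oil mean (12 under quantile normalization and 11 under normexp background correction), with a median difference of -0.26. Their summed signal spanned 9138 to 9829 times the array's 75th percentile in corn oil against 7391 to 8687 in CCl4. All CCl4 rats lay below all corn oil rats in 8 of the 14 markers, and 3 were lower at an unadjusted p below 0.05. The part of hepatocyte content in the values of the 36 genes was not tested.

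**Figure D1:**
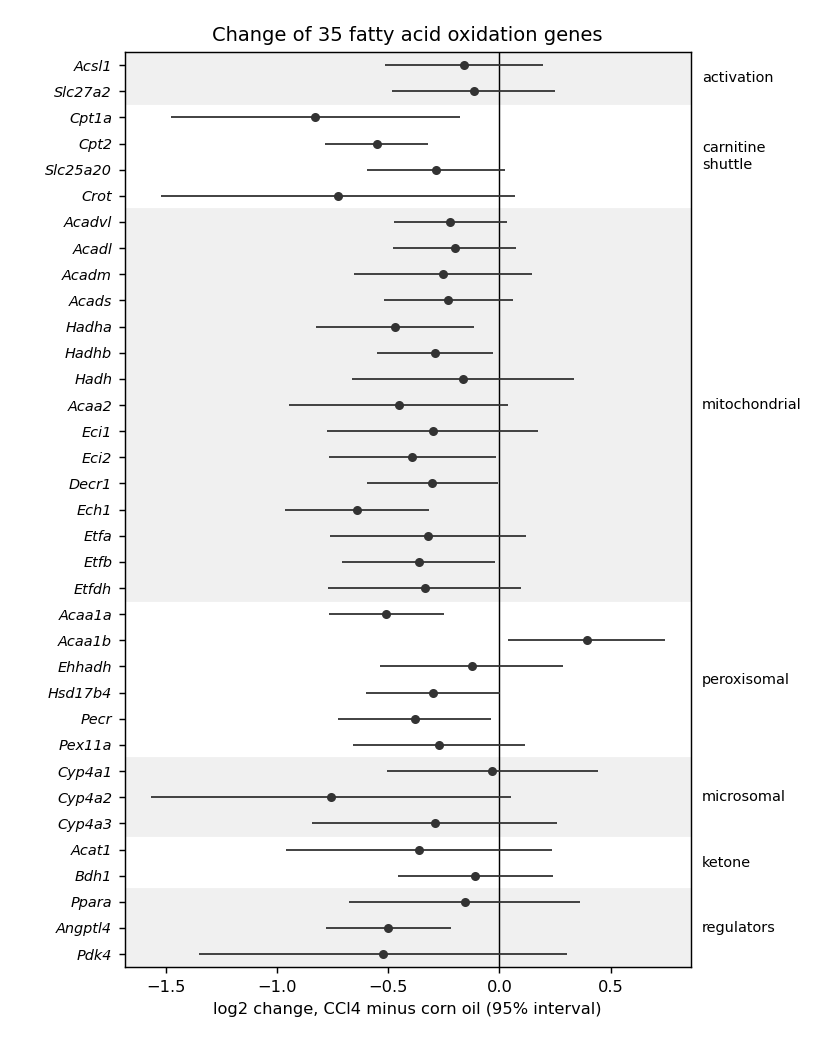
Log2 difference, CCl4 minus corn oil, for 35 of the 36 genes by role, as the mean over 3 rats per group with its 95% confidence interval from limma. Crat is left out because its chosen probe has 1 spot near background. All points except Acaa1b (0.39) lie below 0, though Acsl1, Slc27a2 and Cyp4a1 turned sign under quantile normalization, and the lowest is Cpt1a at -0.83.

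The carnitine shuttle had a median of -0.55 over its 5 genes. Cpt1a encodes the liver form of carnitine palmitoyltransferase 1, the outer-membrane enzyme that commits long-chain fatty acids to the mitochondrion and is inhibited by malonyl-CoA. Its level was 5.18, 5.34 and 5.15 in corn oil and 3.89, 4.33 and 4.97 in CCl4. The groups did not overlap, but CCl4 replicate 3 lay close to the corn oil rats and replicate 1 far below them. The log2 difference was -0.83 ± 0.27 (SE, 95% interval -1.48 to -0.18), 56.4% of the corn oil level, with an adjusted p of 0.184. Without CCl4 replicate 1 it was -0.57 with an adjusted p of 0.289, and without replicate 3 it was -1.11 with an adjusted p of 0.0495. With slide as a block, which sets CCl4 replicate 1 alone against the corn oil rats, it was -1.34.

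Cpt2, the inner-membrane partner that rebuilds the acyl-CoA, had the smallest standard error of the 36 genes. Its level was 5.10, 5.13 and 5.05 in corn oil and 4.52, 4.48 and 4.62 in CCl4, so the groups were apart by more than the range within either. The log2 difference was -0.55 ± 0.095, 68.2% of the corn oil level, with an adjusted p of 0.0653. It passed in 1 of 18 other settings, a variance trend, with an adjusted p of 0.0407, and the adjusted p ran up to 0.274 over the rest.

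Slc25a20 encodes the carrier that exchanges acylcarnitine for carnitine across the inner membrane. Its level was 4.54, 4.68 and 4.82 in corn oil and 4.45, 4.22 and 4.51 in CCl4, a log2 difference of -0.29 ± 0.13 (adjusted p 0.279) with groups that were only just apart. Crot, the peroxisomal carnitine octanoyltransferase that exports shortened chains, was at 6.09, 5.90 and 6.02 in corn oil and 5.43, 4.53 and 5.87 in CCl4. The log2 difference of -0.72 ± 0.33 had an adjusted p of 0.282. CCl4 replicate 2 was far the lowest, and replicate 3 was within 0.1 of the lowest corn oil rat. Without replicate 2 the difference was -0.35.

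Crat encodes carnitine acetyltransferase, which handles short chains, and its brightest probe could not be read as a group difference. On that probe the level was 6.23, 6.23 and -4.58 in corn oil and 5.75, 5.75 and 5.68 in CCl4. On the array of corn oil replicate 3 the spot had a median signal of 60 over a local background of 42, where the other corn oil arrays read 37474.5 and 36099. The flag in the scanner file still counted this spot as well above background. The resulting log2 difference of 3.10 ± 2.86 had an interval of -3.82 to 10.02. Without that array the difference was -0.50.

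The other Crat probe had no such spot, with levels of 1.26, 1.16 and 1.37 in corn oil and 0.70, 0.73 and 0.98 in CCl4. On it all 3 CCl4 rats were below the corn oil rats, with a log2 difference of -0.46 ± 0.12, 72.8% of the corn oil level, and an adjusted p over all probes of 0.144. This probe was examined after the values of the first had been seen. A single array more than 8 log2 units from its nearest neighbour occurred in 5 of the 11939 genes, and Crat was the only one of the 36.

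**Figure D2:**
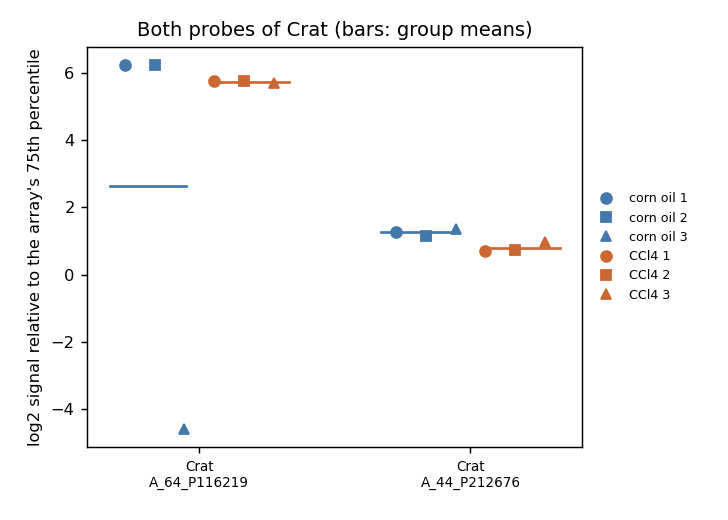
Levels of both Crat probes on each of the 6 arrays, as log2 signal relative to the array's 75th percentile, with blue for corn oil and orange for CCl4, and circle, square and triangle for replicates 1, 2 and 3. The brighter probe drops to -4.58 on corn oil replicate 3, while the dimmer probe stays between 0.70 and 1.37 on all arrays.

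Ahead of the shuttle, fatty acids are joined to coenzyme A, and the 2 genes of that step had the role median closest to 0, -0.14. Acsl1, the main long-chain acyl-CoA synthetase of liver, was at 8.94, 8.57 and 8.63 in corn oil and 8.54, 8.39 and 8.72 in CCl4. Slc27a2, a very-long-chain acyl-CoA synthetase and fatty acid transporter, was at 8.58, 8.29 and 8.72 in corn oil and 8.46, 8.24 and 8.55 in CCl4. The groups overlapped in both. The log2 differences were -0.16 ± 0.15 (adjusted p 0.568) for Acsl1 and -0.12 ± 0.15 (adjusted p 0.698) for Slc27a2, and both signs turned under quantile normalization, to 0.000715 and 0.015.

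All 15 genes of mitochondrial oxidation had a negative difference, with a median of -0.30 and a range of -0.64 to -0.16. The groups did not overlap in 8 of the 15, all lower in CCl4, beside 15.9% of all genes, and 6 were lower at an unadjusted p below 0.05, beside 9.77%. None passed the test. Ech1, an auxiliary isomerase that moves double bonds of unsaturated chains, was the lowest relative to corn oil. Its level was 6.72, 6.67 and 7.01 in corn oil and 6.03, 6.17 and 6.27 in CCl4, with a gap between the groups wider than the spread within either. The log2 difference was -0.64 ± 0.13 (95% interval -0.96 to -0.32), 64.2% of the corn oil level, with an adjusted p of 0.0833.

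The trifunctional protein carries out the hydration, second dehydrogenation and cleavage of long chains, and both of its subunits were lower without passing the test. Hadha, the alpha subunit, was at 3.99, 3.96 and 4.35 in corn oil and 3.65, 3.49 and 3.76 in CCl4. The groups were apart, with a log2 difference of -0.47 ± 0.15 and an adjusted p of 0.169. Its other probes were at -0.27 and -0.15, and the mean of its probes at -0.30. Hadhb, the beta subunit with the thiolase activity, was at 3.30, 3.23 and 3.39 in corn oil and 2.93, 2.97 and 3.14 in CCl4. It too was apart between the groups, with a log2 difference of -0.29 ± 0.11 and an adjusted p of 0.223.

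The acyl-CoA dehydrogenases, which start each round on chains of different length, were all below the corn oil mean. Acadvl (very long chains) was at 85.7% of the corn oil level, Acadl (long) at 86.9%, Acadm (medium) at 83.8% and Acads (short) at 85.3%. Their adjusted p ran from 0.298 to 0.428, and the groups were apart in Acadvl and Acads only. The electron carriers that take over from them lay in a like range. The log2 difference was -0.32 ± 0.18 for Etfa and -0.36 ± 0.14 for Etfb, the subunits of electron transfer flavoprotein, and -0.34 ± 0.18 for Etfdh, which passes the electrons to the respiratory chain. Of these 3, the groups were apart in Etfb only. With slide as a block the difference was nearer 0 for Acadvl (-0.11), Acadl (-0.10) and Etfb (-0.20). It was further from 0 for Acadm (-0.34), Acads (-0.24), Etfa (-0.44) and Etfdh (-0.44).

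Acaa2, the thiolase for medium chains, was at 6.98, 7.18 and 7.37 in corn oil and 6.44, 6.62 and 7.12 in CCl4, with a log2 difference of -0.45 ± 0.20 (adjusted p 0.279). Replicate 3 of the CCl4 group lay among the corn oil rats. Hadh, the short-chain hydroxyacyl dehydrogenase, showed the smallest difference of the 15, -0.16 ± 0.21, with levels of 8.19, 8.16 and 7.74 against 7.62, 7.74 and 8.23.

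The remaining genes listed under mitochondrial oxidation handle double bonds. Eci1 and Eci2 encode enoyl-CoA isomerases and were at 81.2% and 76.2% of the corn oil level, and Decr1, the dienoyl-CoA reductase, was at 81.2%. The groups were apart in Eci2 and Decr1. In Eci1 only CCl4 replicate 1, at 6.48, lay below the lowest corn oil rat at 7.01, and the other CCl4 rats were at 7.09 and 7.07. Without that rat the difference in Eci1 was -0.10. Blocking on slide gave -0.70 in Eci1, -0.74 in Acaa2 and -0.40 in Hadh, and -0.15 in Decr1.

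**Figure D3:**
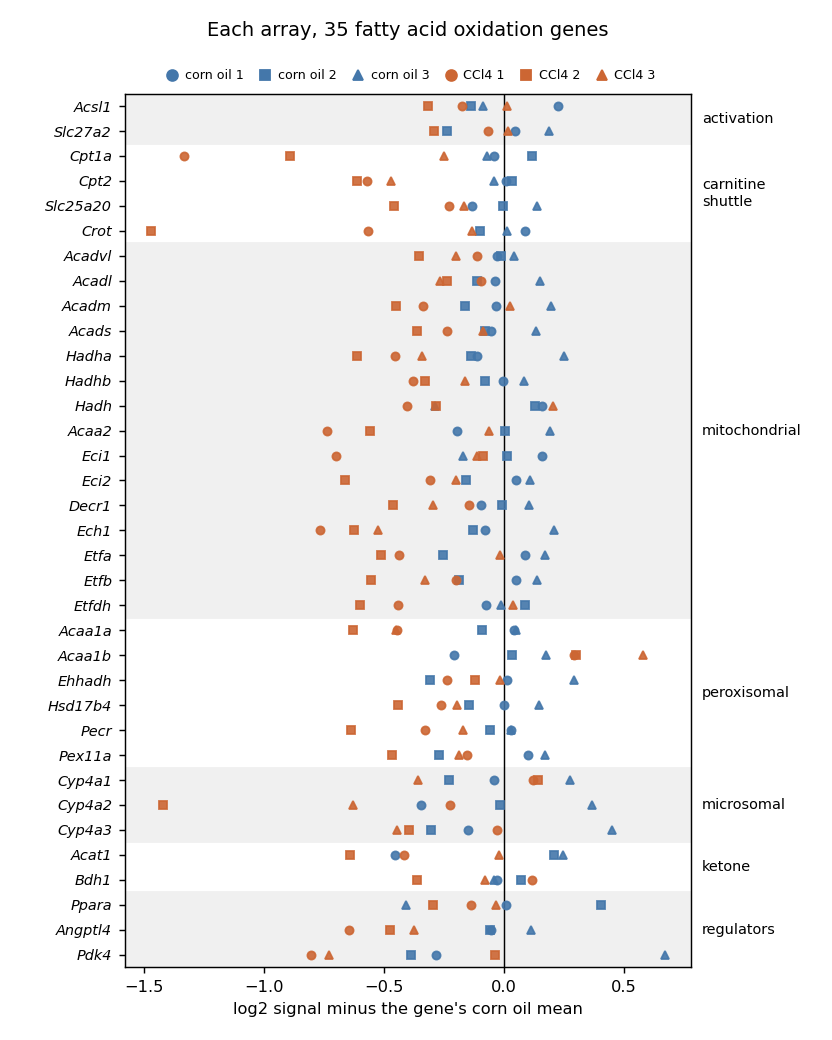
Level of 35 of the 36 genes on each of the 6 arrays, minus the mean of that gene over the 3 corn oil rats, in log2 units and ordered by role, with Crat left out. Blue marks corn oil, orange CCl4, and circle, square and triangle are replicates 1, 2 and 3. CCl4 replicate 2 is the lowest CCl4 array in 22 of the 35 genes and replicate 3 the highest in 23.

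The 6 genes of peroxisomal oxidation had a median difference of -0.28, and 5 were negative. The exception was Acaa1b, which stood in contrast to its close relative Acaa1a. Both encode peroxisomal 3-ketoacyl-CoA thiolases, the last enzymes of the peroxisomal chain. Rat thiolase B, from Acaa1b, is known as the form that peroxisome proliferators induce, and thiolase A, from Acaa1a, as the more constant one.

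The promoters of both thiolase genes are printed because the genes are paralogs, both on chromosome 8, whose chosen probes differed in sign. They are RefSeq sequences on the GRCr8 assembly, from 250 bases before to 50 after the start, each on the strand of its gene. That of Acaa1a is chr8:127957231-127957530 on the plus strand, and that of Acaa1b is chr8:127759520-127759819 on the minus strand. Capitals mark CCAAT boxes, here all in the reverse orientation as ATTGG, of which Acaa1a has 3 and Acaa1b 2.
Acaa1a: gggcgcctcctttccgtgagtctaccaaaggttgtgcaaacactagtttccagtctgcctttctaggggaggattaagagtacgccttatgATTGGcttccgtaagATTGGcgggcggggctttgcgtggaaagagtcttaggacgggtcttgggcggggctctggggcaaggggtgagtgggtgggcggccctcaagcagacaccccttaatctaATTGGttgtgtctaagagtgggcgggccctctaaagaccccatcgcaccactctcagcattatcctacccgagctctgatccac
Acaa1b: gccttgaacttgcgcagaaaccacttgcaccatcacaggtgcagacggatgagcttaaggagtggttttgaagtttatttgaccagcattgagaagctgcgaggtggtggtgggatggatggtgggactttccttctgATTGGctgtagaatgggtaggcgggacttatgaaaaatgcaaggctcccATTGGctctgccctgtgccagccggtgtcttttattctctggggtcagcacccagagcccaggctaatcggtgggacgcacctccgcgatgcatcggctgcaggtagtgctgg
Over 255 aligned bases these windows were 69.4% identical (177 bases), and a further 90 gap positions are not counted in that share. Neither holds, on either strand, an exact copy of the direct repeat to which PPARα binds as a dimer, AGGTCA and AGGTCA spaced by 1 base of any kind. Inexact copies and sites outside these windows were not searched, so this does not show that a PPARα site is absent.

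Acaa1a on its brightest probe was at 8.65, 8.52 and 8.66 in corn oil and 8.17, 7.98 and 8.16 in CCl4. All CCl4 rats were below all corn oil rats, with a log2 difference of -0.51 ± 0.11, 70.2% of the corn oil level, and an adjusted p of 0.0839. Acaa1b was at 8.01, 8.26 and 8.40 in corn oil and 8.52, 8.52 and 8.80 in CCl4. Here all CCl4 rats were above all corn oil rats, with a log2 difference of 0.39 ± 0.15, 131% of the corn oil level, and an adjusted p of 0.222.

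The probe chosen for Acaa1a decides this contrast. Of the 6 thiolase probes, 3 per gene, 5 were higher in CCl4 and only the brightest Acaa1a probe was lower. The other Acaa1a probes had log2 differences of 0.45 and 0.44, and the mean of the 3 gave 0.13.

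The Acaa1b probes all pointed one way, at 0.39, 0.54 and 1.31, with a mean of 0.75. The last was at 6.79, 7.47 and 7.72 in corn oil and 8.55, 8.57 and 8.79 in CCl4, 248% of the corn oil level, with an adjusted p over all probes of 0.0804. How much signal each probe takes from the transcript of the other gene was not tested.

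**Figure D4:**
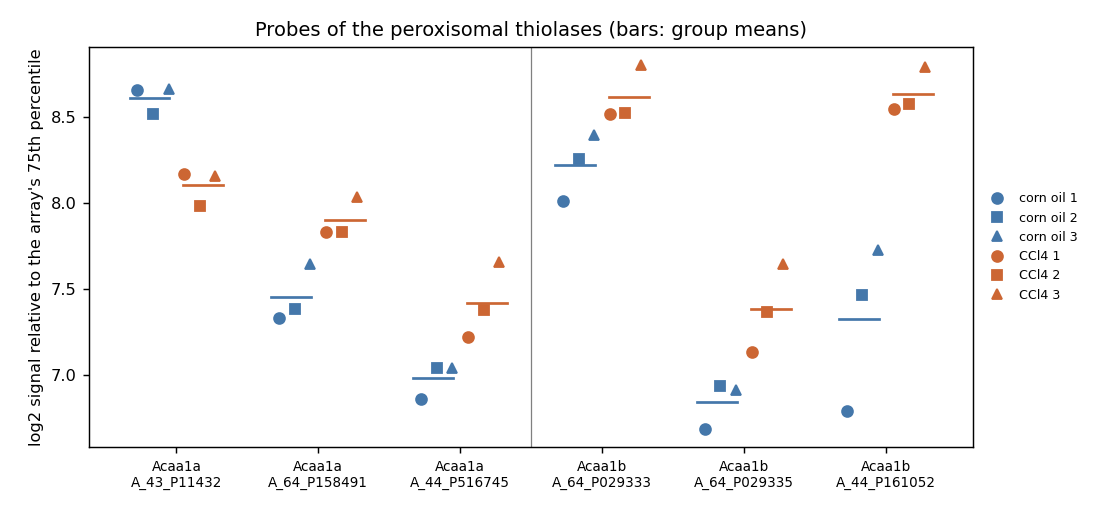
Levels of the 3 Acaa1a and 3 Acaa1b probes on each of the 6 arrays, as log2 signal relative to the array's 75th percentile, with blue for corn oil and orange for CCl4, and circle, square and triangle for replicates 1, 2 and 3. CCl4 lies above corn oil on 5 of the 6 probes and below it on the brightest Acaa1a probe.

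The other peroxisomal genes were lower or close to corn oil. Pecr, a peroxisomal trans-2-enoyl-CoA reductase, was at 6.19, 6.10 and 6.19 in corn oil and 5.83, 5.52 and 5.99 in CCl4, with groups apart and a log2 difference of -0.38 ± 0.14 (adjusted p 0.223). Hsd17b4, the multifunctional enzyme that handles branched chains and bile acid precursors, was at 7.28, 7.14 and 7.43 against 7.02, 6.84 and 7.09, also apart, with a log2 difference of -0.30 ± 0.12. Ehhadh, the multifunctional enzyme of straight chains, overlapped between the groups at a log2 difference of -0.13 ± 0.17. Pex11a, which takes part in peroxisome division, overlapped too, at -0.27 ± 0.16. The 2 were at -0.24 and -0.15 with slide as a block.

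The 3 microsomal CYP4A genes, among the classical PPARα targets of rat liver, overlapped between the groups. Cyp4a1 was at 7.37, 7.18 and 7.68 in corn oil and 7.53, 7.55 and 7.05 in CCl4, a log2 difference of -0.03 ± 0.20 whose sign turned to 0.0015 under quantile normalization and to 0.12 with slide as a block. Cyp4a2 was at 8.59, 8.92 and 9.30 in corn oil and 8.72, 7.52 and 8.31 in CCl4, so CCl4 replicate 2 alone was more than 1 log2 unit below the lowest corn oil rat. Its log2 difference was -0.76 ± 0.33 (95% interval -1.57 to 0.05, adjusted p 0.273), and -0.43 without CCl4 replicate 2.

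Cyp4a3 was at 7.82, 7.67 and 8.42 in corn oil and 7.94, 7.58 and 7.53 in CCl4, a log2 difference of -0.29 ± 0.23. In Cyp4a2 and Cyp4a3 both CCl4 rats of the second slide were lower than CCl4 replicate 1. In Cyp4a1 only replicate 3 was, since replicate 2 was at 7.55, above the corn oil mean of 7.41. With slide as a block the difference was -0.22 for Cyp4a2 and -0.03 for Cyp4a3, and the median of the 3 genes moved from -0.29 to -0.03. Cyp4a2 and Cyp4a3 are near-identical copies, and their probes may share signal.

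Their promoters are printed to show how alike the copies are. They lie at chr5:134170859-134171158 for Cyp4a2 and chr5:134352187-134352486 for Cyp4a3, both on the minus strand of GRCr8 (RefSeq). Capitals mark the 1 match to AGGTCA, the letters that nuclear receptors such as PPARα bind, which starts 105 bases before the start in both.
Cyp4a2: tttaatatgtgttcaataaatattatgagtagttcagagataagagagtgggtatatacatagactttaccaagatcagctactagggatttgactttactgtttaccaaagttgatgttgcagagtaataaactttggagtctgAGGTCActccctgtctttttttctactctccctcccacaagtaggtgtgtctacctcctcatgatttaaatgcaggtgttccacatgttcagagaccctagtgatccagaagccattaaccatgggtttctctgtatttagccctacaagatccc
Cyp4a3: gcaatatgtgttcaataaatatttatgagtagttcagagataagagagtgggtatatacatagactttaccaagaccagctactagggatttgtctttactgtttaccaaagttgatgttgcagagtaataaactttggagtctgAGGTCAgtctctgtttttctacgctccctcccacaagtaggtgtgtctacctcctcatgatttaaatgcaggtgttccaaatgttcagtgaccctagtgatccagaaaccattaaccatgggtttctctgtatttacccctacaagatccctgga
Over 295 aligned bases they were 96.3% identical, with 10 gap positions not counted. Promoters of the same length were given for 31 of the 36 genes, all but Acaa2, Acadl, Cyp4a1, Decr1 and Ech1. AGGTCA, on either strand, was in 8 of the 31 (25.8%), against 16.2% of all 33469 promoters. The 8 were Acadvl, Cyp4a2, Cyp4a3, Eci1, Eci2, Hadhb, Hsd17b4 and Slc27a2. An exact copy of that direct repeat, which contains AGGTCA, was in 0 of the 31, against 0.0538% of all promoters. It is too rare for a count in 31 promoters to tell these genes from the rest. CCAAT, on either strand, was in 12 of the 31 (38.7%), against 37.5% of all.

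The 2 listed genes of ketone body metabolism overlapped between the groups. Acat1, the mitochondrial acetoacetyl-CoA thiolase, was at 3.76, 4.42 and 4.46 in corn oil and 3.80, 3.57 and 4.19 in CCl4. Bdh1, which interconverts acetoacetate and 3-hydroxybutyrate, was at 4.77, 4.87 and 4.76 in corn oil and 4.91, 4.44 and 4.72 in CCl4. The log2 differences were -0.36 ± 0.25 (adjusted p 0.451) and -0.11 ± 0.14 (adjusted p 0.702), and that of Bdh1 was 0.11 with slide as a block.

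Of the regulators, Angptl4 stood apart between the groups. It encodes a secreted inhibitor of lipoprotein lipase and is a PPAR target. Its level was 6.65, 6.64 and 6.82 in corn oil and 6.06, 6.23 and 6.33 in CCl4, a log2 difference of -0.50 ± 0.12 (95% interval -0.78 to -0.22, adjusted p 0.101). All CCl4 rats were below all corn oil rats on its second probe as well, where the difference was -0.72.

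Ppara itself, the receptor, overlapped at 1.44, 1.83 and 1.02 in corn oil and 1.29, 1.13 and 1.40 in CCl4, a log2 difference of -0.16 ± 0.22. The wide corn oil spread sets its interval of -0.68 to 0.36. Pdk4, the kinase that shuts off pyruvate dehydrogenase when fat is burned, was at -0.03, -0.14 and 0.92 in corn oil and -0.56, 0.21 and -0.48 in CCl4. Its log2 difference of -0.52 ± 0.34 (adjusted p 0.430) came with groups that overlapped, and corn oil replicate 3 was the high value. Without that array it was -0.19, and with slide as a block it was -0.80.

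The CCl4 rats differed among themselves. Over all 36 genes, the median distance from the corn oil mean was -0.29 in CCl4 replicate 1, -0.46 in replicate 2 and -0.17 in replicate 3, against -0.03, -0.08 and 0.13 in the corn oil rats. Of the 35 genes other than Crat, 27 had all 3 CCl4 rats below the corn oil mean. Taken singly, CCl4 replicates 1, 2 and 3 were below it in 32, 33 and 29 of the 35. Over all 11939 genes they were below it in 6537, 6782 and 6432. Replicate 2 was the lowest CCl4 rat in 22 of the 35 genes and replicate 3 the highest in 23. Corn oil replicate 3 was the highest corn oil rat in 25. The like counts over all genes, for all 3 CCl4 rats together and for the order of the rats, were not made.

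The roles shared that order only in part. The mitochondrial genes had medians of -0.38, -0.46 and -0.16 in CCl4 replicates 1, 2 and 3, and the peroxisomal genes -0.25, -0.45 and -0.18. The microsomal medians, at -0.03, -0.40 and -0.45, were near the corn oil mean on the first slide and below it on the second. Cyp4a1 in CCl4 replicate 2, on the second slide, was above its own corn oil mean. The hepatocyte markers had medians of -0.26, -0.39 and -0.14, in the same order as the mitochondrial genes. All genes tested had that order too, at -0.04, -0.07 and -0.02. With slide as a block, which sets CCl4 replicate 1 against the corn oil rats of its slide, the median of the 36 was -0.29 and 32 were negative, against 54.8% of all genes. At an unadjusted p below 0.05, 7 were then lower, beside 6.11% of all genes, and 0 passed the test, beside 0.0335% of all genes.

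**Figure D5:**
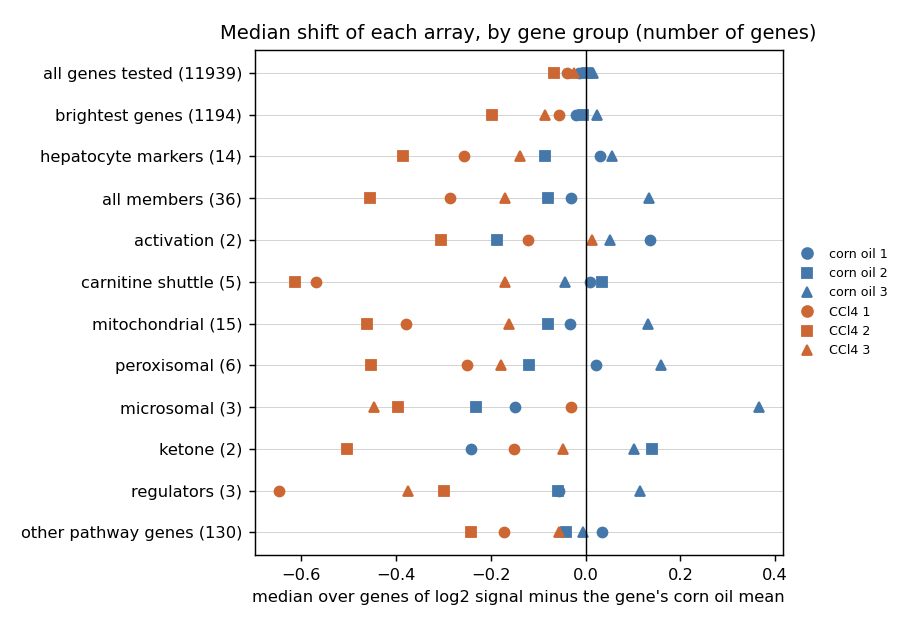
Median distance of each array from the corn oil mean, in log2 units, over all 11939 genes, the 1194 brightest, the 14 hepatocyte markers, all 36 genes, each role and the 130 other pathway genes. Blue marks corn oil, orange CCl4, and circle, square and triangle are replicates 1, 2 and 3. For all 36 genes the CCl4 rats lie at -0.29, -0.46 and -0.17, with the hepatocyte markers close by at -0.26, -0.39 and -0.14.

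Of 144 further genes of the same pathways, 130 could be tested. Here 2 rose, Fabp4 and Acsl3, and 0 fell. These counts stand beside 0.561% and 0.0754% of all genes. The median was -0.18 and 91 (70.0%) were negative. By role the medians were -0.25 for mitochondrial oxidation (11 genes), -0.21 for peroxisomal oxidation and peroxisome assembly (30), -0.31 for microsomal steps (12) and -0.15 for regulators and PPAR targets (40). Uptake and activation stood at 0.08 (21), carnitine and malonyl-CoA metabolism at -0.06 (10) and ketone bodies at 0.02 (6).

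Fabp4, a fatty acid binding protein of adipocytes and macrophages, was at -4.91, -4.70 and -5.75 in corn oil and -1.58, -0.72 and -0.79 in CCl4. It was near background in corn oil, well above it on 2 of the 3 arrays, and far higher in every CCl4 rat. The log2 difference was 4.09 ± 0.35, 17.0-fold, with an adjusted p of 0.0171, and under normexp background correction it was 2.28. Leaving out corn oil replicate 3, CCl4 replicate 1 or CCl4 replicate 2 ended the call, with adjusted p of 0.0524, 0.0543 and 0.108.

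Of the 16 macrophage markers 3 rose in CCl4, Trem2, Gpnmb and Lgals3, beside 0.561% of all genes, and 0 fell. By sign 9 of the 16 were positive and 7 negative, with a median of 0.07. Their summed signal was 209 to 255 in corn oil against 244 to 283 in CCl4. Of 6 adipocyte markers with a probe, Adipoq, Lep and Ucp1 were well above background on no array. The other 3 did not pass the test, with log2 differences of 0.68 for Cidea, 0.26 for Retn and -0.40 for Cfd. The part of macrophages or adipocytes in the value of Fabp4 was not tested.

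Acsl3, an acyl-CoA synthetase of the endoplasmic reticulum and lipid droplets, was at -0.59, -1.37 and -1.32 in corn oil and 0.58, 0.47 and 0.64 in CCl4. The CCl4 rats were within 0.2 of each other and all above the corn oil rats. The log2 difference was 1.66 ± 0.22, 3.16-fold, with an adjusted p of 0.0441. The call was lost on leaving out any array but corn oil replicate 1, with adjusted p of 0.0583 to 0.174. With slide as a block the differences were 3.54 for Fabp4 and 1.68 for Acsl3, and the adjusted p was 0.154 and 0.216.

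Next in order of p, none passing the test, were 4 more genes above corn oil. They were Oxct1, the ketone-using transferase that normal hepatocytes hardly make, at 0.72 ± 0.12 (adjusted p 0.0653), and Acaca, the cytosolic acetyl-CoA carboxylase that makes malonyl-CoA, at 0.69 ± 0.15 (0.0908). Cyp4b1, a fatty acid hydroxylase, was at 1.04 ± 0.29 (0.135), and Aqp7, a glycerol channel, at 1.92 ± 0.60 (0.166). The value of Acaca was -0.072 under normexp background correction and -0.11 on its other probe.

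On the lower side the 6 genes with the smallest p also did not pass. Creb3l3, a liver transcription factor of the fasting response, was at -0.50 ± 0.10 (adjusted p 0.0766), and Aqp9, the hepatocyte glycerol channel, at -0.38 ± 0.10 (0.130). Aldh9a1, of carnitine synthesis, was at -0.51 ± 0.15 (0.143), and Pex5, the import receptor of peroxisomes, at -0.43 ± 0.13 (0.152). Slc27a5, a bile acid and fatty acid acyl-CoA synthetase, was at -0.83 ± 0.26 (0.166), and Prkaa2, a catalytic subunit of AMP-activated kinase, at -0.49 ± 0.16 (0.192). Slc27a5 was at -0.46 with slide as a block.

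Oxidation enzymes are spread unevenly along the liver lobule, and markers of both its ends were lower in part. Of 12 pericentral markers 9 were negative (75%), with a median of -0.19. Of 11 periportal markers 9 were negative (81.8%), with a median of -0.28. These shares stand beside 57.2% of all genes. The summed pericentral signal was 575 to 642 in corn oil and 371 to 520 in CCl4, which did not overlap. A sum weighs bright markers most, here Cyp2e1, whose level overlapped at 8.45 to 8.65 in corn oil and 7.65 to 8.53 in CCl4. The summed periportal signal was 731 to 1029 in corn oil and 512 to 845 in CCl4, which did. The part of zonation in the values of the 36 genes was not tested.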

How the data were processed

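Liver RNA of 6 rats was hybridised to 1-colour arrays from 0.2 µg of labelled RNA, per the labels' protocols. The scanner files deposited by the authors give the intensity of each spot, as read by Agilent Feature Extraction 10.7.1.1, per the file headers (10.7 according to the submitters' processing notes), background-subtracted but not scaled between arrays, with other columns of flags for spots above background, saturated or outlying. The authors' value table, also deposited, is a linear ratio: each column is the processed signal divided by 583.3 to 676.5, close to that array's 75th percentile of 582.6 to 675.6, with a spread of at most 0.00121% and column medians of 0.103 to 0.110. This scaling is not in the labels and was worked out from the numbers.

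Of 61537 probes other than 1439 control spots, 28206 matched 1 symbol in the RefSeq table of GRCr8 through the accession without its version, giving 15645 symbols, and 33331 matched none. The array design names the older rn4 build. Control spots and 26 probes with an outlier flag were left out. Log2 signals minus each array's 75th percentile were fitted with limma 3.58.1 (R 4.3.3; two-sided moderated test from lmFit and eBayes), on 1 probe per gene, the brightest by mean, well above background on at least 3 of 6 arrays. Probe values quoted beside a gene come from the same fit over all probes.

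The animals were fitted as unpaired. In their deviations from the group means, same-numbered arrays correlated at -0.05, 0.16 and 0.02, and differently numbered ones at -0.18 to 0.15. Deviations within a group of 3 are tied to each other, so these values cannot show that pairing is absent. On simulated data for this comparison (11939 genes, 20 runs, 200 changed genes each) the fit recovered 58.7% of log2 differences of 1, 86.9% of 2 and 94.8% of 3, and 4.9% of calls were false. This did not include a slide effect. With 3 arrays per group, their number limits the precision.

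The 36 genes and all lists were chosen with earlier results of these data known. All 36 are described. Of the other pathway genes those that passed are named, with the 6 smallest p in each direction. Cell type markers are given as counts, apart from the 3 that rose, the adipocyte markers and Cyp2e1. Results were recomputed with median scaling, quantile normalization, normexp with an offset of 50 (on median spot signals, as mean signals were not used here), the authors' values, no filter or all 6 arrays, the mean of probes, a variance trend, blocks for slide (fixed or random) or for the replicate number, the first slide by itself, and each array left out in turn. The second Crat probe was added after seeing the data. Python 3.11.15 with numpy 2.4.6, pandas 2.3.3, matplotlib 3.10.9 and biopython 1.88, and statmod 1.5.0, were also used.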

Additional observations from a re-analysis of the deposited data

How the results depend on the processing

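With 3 animals per group and slide partly confounded with treatment, the counts of calls moved more than the differences. Genes called numbered 76, and 210 with normexp, 139 with a filter on all 6 arrays, 156 with a variance trend, 4 with slide as a fixed block, 10 with the replicate number as a block and 2 to 241 with 1 array left out. The first slide alone, where the lone CCl4 rat was assumed to vary like the corn oil rats, gave 0, with 757 lower and 841 higher at an unadjusted p below 0.05. Of the 36 genes 0 passed, and 1 with a variance trend, 0 with the replicate block and 0 to 1 with 1 array left out. Of the other pathway genes 2 passed, 1 without a filter, 1 with the filter on all 6 arrays, 0 with slide as a fixed block, 0 on the first slide, 0 with the replicate block and 0 to 2 with 1 array left out.

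The median of the 36 was -0.37 to -0.22 over the 18 alternatives and -0.30 with the replicate block. The mitochondrial median was -0.39 to -0.23, the peroxisomal -0.39 to -0.20 and the microsomal -0.44 to -0.03. Of the 36 genes 27 were lower under all 18, but not every alternative could move a sign. The changed filters, the variance trend and the replicate block left the differences of the 36 genes as they were. The authors' values left them nearly so. Slide as a fixed block and the first slide alone gave identical differences. Signs turned under quantile normalization for Acsl1 (0.000715), Slc27a2 (0.015) and Cyp4a1 (0.0015), with slide as a block or the first slide alone for Cyp4a1 (0.12) and Bdh1 (0.11), with the mean of probes for Acaa1a (0.13), on the other probe for Crat (-0.46), and under normexp for Acaca (-0.072). With 1 array left out, signs turned within -0.50 to 4.90 for Crat, -0.28 to 0.021 for Ehhadh, -0.15 to 0.13 for Cyp4a1, -0.22 to 0.019 for Bdh1 and -0.36 to 0.045 for Ppara. The mean of probes for Acaa1a takes in its other probes, at 0.45 and 0.44. Slide as a block and the first slide alone rest on CCl4 replicate 1 as the only CCl4 rat. Under normexp the brightest probe of a gene was picked anew, and the other Acaca probe was at -0.11. In Crat 1 spot near background is seen. The cause of the other turns was not tested.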
